A study of Mus musculus with 4 samples.

Results

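U7, U11 and U12 are small nuclear RNAs (snRNAs), and each is represented in the deposited tables by 1 gene model, Rnu7, Rnu11 and Rnu12. These 3 models of 50600 were taken by symbol. They were measured by RNA immunoprecipitation (RIP) of testis lysates from C57BL/6 mice aged 8 weeks, in 2 LARP7 RIP libraries and 2 IgG RIP libraries. RIP sequences the RNAs that stay on antibody-coated beads with the protein that the antibody binds, and IgG stands for what the beads hold without such an antibody. The labels name no mutation or treatment for either group, the lysis buffer held 150 mM NaCl and the wash buffer 500 mM, and library inserts were size-selected from 15 to 300 nt. The libraries carry replicate numbers, and the series speaks of biological replicates, but the labels do not tie a library to an animal or pool, so the p-values rest on a spread that may be technical. In bulk lysates fewer cells of a type and less RNA per cell cannot be told apart.

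LARP7 is one of the La-related proteins and holds the ends of small RNAs made by RNA polymerase III, of which 7SK RNA and U6 snRNA are its best known partners. U7 snRNA is the base-pairing part of the particle that cuts the 3' end of replication-dependent histone pre-mRNAs, which end in a stem-loop in place of a poly(A) tail. U11 and U12 work together in the minor spliceosome, which removes a rare class of introns: U11 pairs with their 5' splice site and U12 with their branch point. The U7, U11 and U12 particles each carry a ring of Sm proteins, and the U7 ring has Lsm10 and Lsm11 in the places of Snrpd1 and Snrpd2.

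Expected counts, the estimates in which RSEM splits reads between models that share them, summed to 6918040 and 6502682 in the LARP7 libraries, against 6994514 and 4411271 for IgG. A chi-square test between replicates gave 162 per degree of freedom for LARP7 and 64.5 for IgG, far more than sampling noise. TMM factors, which scale each library by its middling genes, were 0.558 and 0.673 with LARP7, against 1.85 and 1.44 with IgG, so folds under TMM and under library totals differ for every gene. Over all 12234 genes tested the middle log2 fold change was -0.05 under TMM and -1.47 under library totals. Markers of spermatids, the most abundant marker set, summed to 404 and 261 CPM (counts relative to library size, here TMM-scaled) with LARP7, against 988 and 1114 CPM with IgG. Under TMM 4 of 7 were called lower, where 9.69% of all genes tested were. Under library totals 7 of 7 were lower, where 47.1% of all genes were. Blood and vessel markers summed to at most 3.05 CPM in any library. The part of spermatid RNA in the results on the snRNAs was not tested.

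In the LARP7 immunoprecipitates U7 snRNA was higher than with IgG, U12 snRNA was lower, and U11 snRNA was not called in either direction. Of the 3 models, 1 was thus higher, where 14.5% of all genes tested were, and 1 was lower, where 9.69% were. Under library totals Rnu7 was again higher, where 3.95% of all genes were, and both Rnu11 and Rnu12 were lower, where 47.1% were. A lower call under library totals was thus common among all genes, so it says little by itself.

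Rnu7 (ENSMUSG00000089083.1, GRCm38.p6 chromosome 6, 124741225 to 124741286) had 2083 and 2017 expected counts in the LARP7 libraries, against 419 and 179 in the IgG libraries. In TMM-scaled CPM these were 541 and 463 with LARP7, against 32.7 and 28.3 with IgG. Both LARP7 libraries lay far above both IgG libraries, and the replicates of each antibody lay close together. The means were 502 ± 55.4 CPM with LARP7 and 30.5 ± 3.12 CPM with IgG (SD, n = 2 each), a log2 fold change of 4.04 (SE 0.64, 95% interval 2.63 to 5.45, edgeR quasi-likelihood adjusted p = 0.00485). This is 16.4-fold, and it ranked 173 from the top among 12234 genes. Scaled by library totals alone, Rnu7 had 301 and 310 CPM with LARP7, against 59.9 and 40.6 with IgG (log2 fold change 2.60, edgeR adjusted p = 1.77e-04). Relative to the median of all genes the change was 4.09 on the log2 scale under TMM and 4.07 under library totals. A change of scaling shifts every gene by about the same amount. The nearness of these values was thus set in advance and is no test of the Rnu7 result.

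Rnu12 (ENSMUSG00000065176.1, GRCm38.p6 chromosome 15, 83149645 to 83149794) went the other way. It had 136 and 255 expected counts with LARP7, against 1518 and 2259 with IgG. In TMM-scaled CPM it had 35.3 and 58.5 with LARP7, against 119 and 357 with IgG. The groups did not overlap, but the IgG libraries differed from each other more than for U7. The means were 46.9 ± 16.4 CPM with LARP7 and 238 ± 169 CPM with IgG (SD, n = 2 each), a log2 fold change of -2.34 (SE 0.67, 95% interval -3.81 to -0.87, edgeR adjusted p = 0.0295). Rnu12 was thus 5.07-fold lower with LARP7. This call was lost when LARP7 replicate 1 was left out (-2.04, edgeR adjusted p = 0.164), when LARP7 replicate 2 was (-2.75, 0.0928) and when IgG replicate 2 was (-1.29, 0.185). Relative to the median of all genes the change was -2.29 under TMM and -2.17 under library totals.

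Rnu11 (ENSMUSG00000077323.1, GRCm38.p6 chromosome 4, 132270079 to 132270186) was the least abundant of the 3 in both LARP7 libraries. It had 35 and 138 expected counts with LARP7, against 193 and 487 with IgG. In TMM-scaled CPM it had 9.09 and 31.7 with LARP7, against 15.1 and 77.0 with IgG. In both groups replicate 2 was well above replicate 1, and the groups overlapped, since LARP7 replicate 2 lay above IgG replicate 1. The means of 20.4 ± 16.0 CPM with LARP7 and 46.1 ± 43.8 CPM with IgG (SD, n = 2 each) gave a log2 fold change of -1.16 (SE 0.92, 95% interval -3.43 to 1.10, edgeR adjusted p = 0.392). The interval spans both no change and a change as large as that of Rnu12. The direction itself rested on IgG replicate 2: without it the log2 fold change was 0.48, and without IgG replicate 1 it was -1.93 and called (edgeR adjusted p = 0.0282). Scaled by library totals alone, the groups were apart, at 5.06 and 21.2 CPM with LARP7, against 27.6 and 110 with IgG (log2 fold change -2.39, edgeR adjusted p = 7.89e-05), and relative to the median of all genes that change was -0.93.

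**Figure D1:**
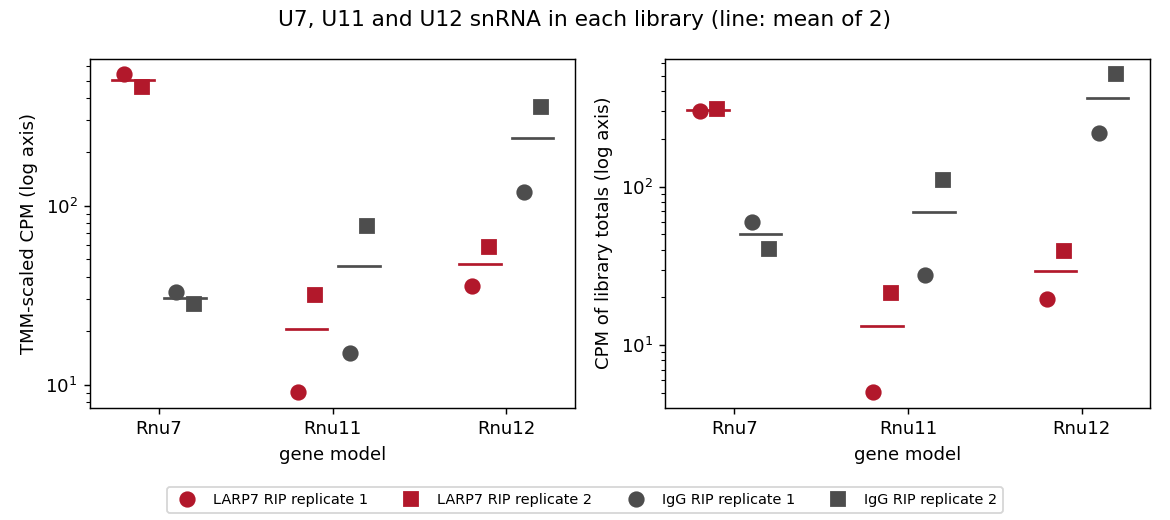
CPM of Rnu7, Rnu11 and Rnu12 in each library, scaled by TMM (left) and by library totals (right), both on log axes; circles are replicate 1, squares replicate 2, and lines the mean of 2 libraries. For Rnu7 both LARP7 libraries (541 and 463 TMM-scaled CPM) lie above both IgG libraries (32.7 and 28.3), for Rnu12 both lie below, and for Rnu11 the groups overlap under TMM but not under library totals.

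**Figure D2:**
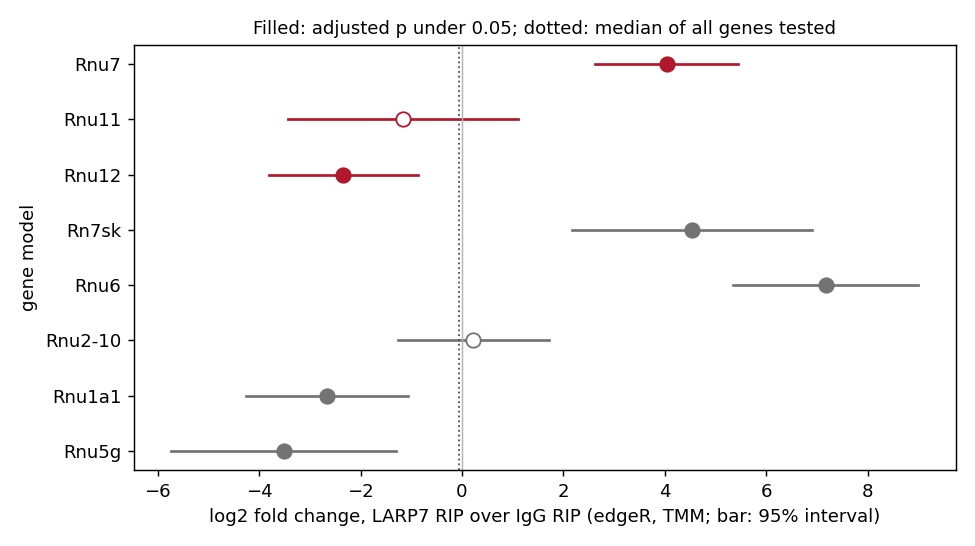
The log2 fold change of LARP7 over IgG for the 3 snRNAs (red) and for 7SK, U6 and major spliceosomal snRNAs (grey), with 95% intervals, filled where the edgeR adjusted p was under 0.05; the dotted line is the median of all genes tested, -0.05. Rnu7 (4.04) lies to the right with Rn7sk and Rnu6, and Rnu12 (-2.34) to the left with Rnu1a1 and Rnu5g.

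A ratio of 2 RNAs in the same library does not depend on the scaling between libraries. There were 15.3 and 7.90 Rnu7 counts for each Rnu12 count in the LARP7 libraries, against 0.276 and 0.0794 in the IgG libraries. U7 was thus the more counted of the pair in both LARP7 libraries and U12 in both IgG libraries. The mean log2 ratio was 6.21 higher with LARP7, or 74.2-fold, and the pairwise differences between a LARP7 and an IgG library ran from 4.84 to 7.59. Rnu7 over Rnu11 was 58.7 and 14.6 with LARP7, against 2.17 and 0.368 with IgG, 5.03 higher in log2 or 32.8-fold, with pairwise differences from 2.75 to 7.32. Rnu11 over Rnu12, the 2 RNAs that share a particle, was 0.260 and 0.542 with LARP7, against 0.127 and 0.216 with IgG. Those groups did not overlap either, but the gap was far smaller, 1.18 in log2 with pairwise differences from 0.27 to 2.09. The sizes depended on single libraries. Without IgG replicate 2 and without IgG replicate 1 the log2 difference was 3.75 and 6.31 for Rnu7 over Rnu11, and 5.31 and 7.11 for Rnu7 over Rnu12. For Rnu11 over Rnu12 it was 0.65 without LARP7 replicate 2 and 1.71 without LARP7 replicate 1. With 2 libraries against 2 the exact two-sided permutation test can give no p below 0.333, which each of these 3 ratios had (0.4 after Benjamini-Hochberg adjustment over the 6 ratios compared), so none can pass a threshold of 0.05.

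Set against 7SK (Rn7sk), the RNA that LARP7 is best known to hold, the 3 RNAs again parted. Rn7sk had 316542 and 931240 counts with LARP7, against 38611 and 61786 with IgG (log2 fold change 4.53, edgeR adjusted p = 0.0167). Without LARP7 replicate 1 or 2 that call was lost (log2 fold changes 5.04 and 3.68, edgeR adjusted p = 0.0791 and 0.208). The Rnu7 to Rn7sk ratio was 0.00658 and 0.00217 with LARP7, against 0.0109 and 0.00290 with IgG. These ratios overlapped between the groups, with a mean log2 difference of -0.57, pairwise differences from -2.33 to 1.18 and an exact permutation p of 0.667. The mean difference turned to 0.23 without LARP7 replicate 2 and to 0.38 without IgG replicate 1, so no order of U7 and 7SK can be read from it. For Rnu12 over Rn7sk the log2 difference was -6.79 and for Rnu11 over Rn7sk -5.61, each with the groups apart and an exact permutation p of 0.333.

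**Figure D3:**
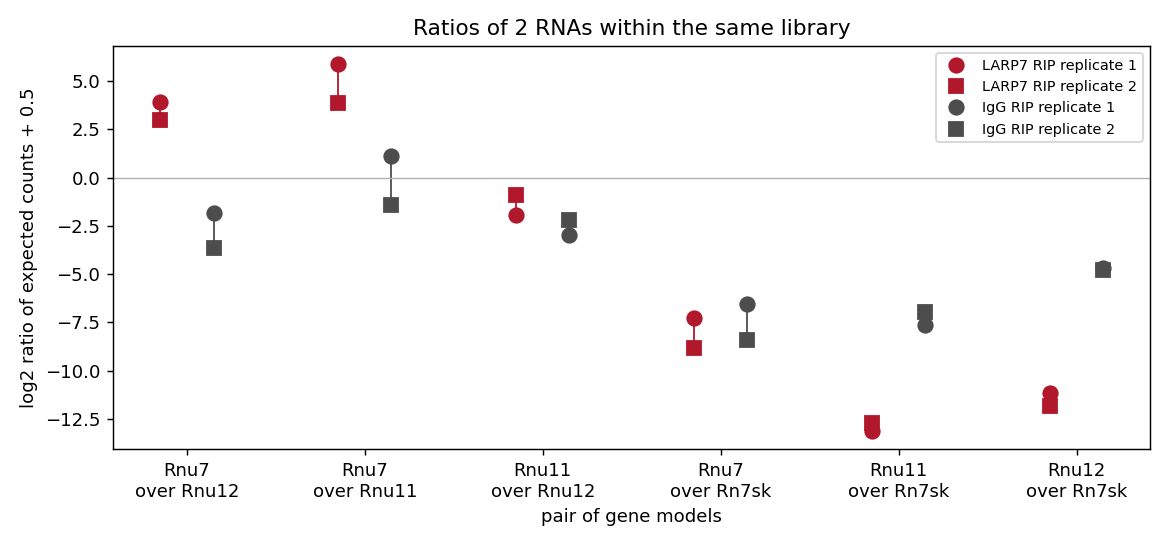
The log2 ratio of 2 RNAs within each library (expected counts plus 0.5); circles are replicate 1, squares replicate 2, and a line joins the replicates of an antibody. Rnu7 over Rnu12 and over Rnu11 lie higher in both LARP7 libraries than in both IgG libraries, while Rnu7 over Rn7sk overlaps between the antibodies.

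Levels of different RNAs can be compared within a library only per length. Per base of model length, Rnu7 had 33.6 and 32.5 counts with LARP7, against 6.75 and 2.88 with IgG. Rnu12 had 0.901 and 1.69 counts per base with LARP7, against 10.1 and 15.0 with IgG, and Rnu11 had 0.261 and 1.03 with LARP7, against 1.44 and 3.63 with IgG. The order in both LARP7 libraries was thus U7, U12, U11. In IgG replicate 1 it was U12, U7, U11, and in IgG replicate 2 it was U12, U11, U7, where the values of U11 and U7 were close. Ranks by expected count are not divided by length, so they describe counts and not levels. By that measure Rnu7 ranked 12 and 8 among 930 snRNA models in the LARP7 libraries, against 36 and 45 in the IgG libraries. Rnu12 ranked 76 and 82 with LARP7, against 31 and 22 with IgG. In TPM, which also divides by effective length, Rnu7 stood at 921 and 1187 with LARP7, against 465 and 236 with IgG. Rnu12 stood at 5.37 and 18.2 TPM with LARP7, against 224 and 342 with IgG, and Rnu11 at 1.70 and 12.1 with LARP7, against 34.8 and 90.2 with IgG. On that scale the order in the LARP7 libraries was again U7, U12, U11, but in the IgG libraries it was U7, U12, U11 in replicate 1 and U12, U7, U11 in replicate 2, so the IgG order depends on the length divided by. RSEM's effective length of the 62-nt Rnu7 model was only 7.86 and 10.9 nt with LARP7, against 11.9 and 10.4 nt with IgG, and TPM divides by these values. For each of the 3 snRNAs the groups were apart in TPM. On log2(TPM + 1) Rnu7 was no longer called by limma (log2 fold change 1.66, adjusted p = 0.134), and neither was Rnu12 (-4.65, adjusted p = 0.0548).

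The same models were read against other small RNAs of like length, in bands of 10 nt to either side that were chosen after values had been seen. Among 59 other small RNA models of 52 to 72 nt tested, 38 were higher with LARP7 and none lower, with a median log2 fold change of 2.39. Rnu7 lay above 53 of them and below 6. Among 51 such models of 124 to 144 nt, 14 were higher and 2 lower (median 0.91), and Rnu11 lay below 48 of them. Among 11 models of 141 to 161 nt, 7 were higher and none lower (median 2.56). Rnu12 lay below all 11, of which the lowest was at -0.14. Over all genes tested 14.5% were higher and 9.69% lower. A small RNA that passed the filter on low counts only through the LARP7 libraries could be called in no other direction. The counts and medians of the bands are thus descriptions of the models tested. Among these, calls of higher were common for small RNAs as short as U7, and U12 was low beside the small RNAs within its band. Just past that band, the U1 models Rnu1a1, Gm26444 and Gm22068 of 164 nt, with identical counts, were about as low as U12 (-2.65 each), so the contrast rests on where the band ends. Inserts of up to 62 nt, the full length of Rnu7, made up 41% and 45% of those in the LARP7 libraries, against 55% and 51% in the IgG libraries, as read from RSEM's effective lengths. The part of insert length in these folds was not tested.

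Within the snRNA class, 60 of 547 models other than Rn7sk and those of 107 nt, the length of Rnu6, were tested, with 5 higher, 16 lower and a median log2 fold change of -0.46. Of all genes tested, 14.5% were higher and 9.69% lower. The 5 higher were Rnu7 and 4 models within 1 nt of U6 in length, Gm22363, Gm22505, Gm22685 and Gm25801. Gm22685 had 14.85 and 26.75 expected counts with LARP7, against 0 in both IgG libraries. It passed the filter on low counts through the LARP7 libraries alone and could be called in no other direction. The count of 5 is thus a description. When models of 106 to 108 nt were set aside, a step chosen after seeing these values, 55 remained with a median of -0.84. Rnu7 was the single one of them called higher, and 16 were lower. Many of those 55 are copies with identical counts, and they hold 38 distinct count profiles. Summed over that class without 107-nt models and Rn7sk, snRNA counts made up 0.927% and 0.990% of the library with LARP7, against 2.88% and 5.48% with IgG. Of these counts Rnu7 took 3.25% and 3.13% with LARP7, against 0.208% and 0.0740% with IgG. Rnu12 took 0.212% and 0.396% with LARP7, against 0.752% and 0.935% with IgG. Rnu11 took 0.0546% and 0.215% with LARP7, against 0.0956% and 0.201% with IgG, so its share of the class overlapped between the antibodies.

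The U1, U2 and U5 models with the most counts frame these values, where Rnu1a1 has the same counts as its copies Gm26444 and Gm22068. No U4 model was compared. Rnu1a1, a U1 model that pairs with major 5' splice sites, was lower (log2 fold change -2.65, edgeR adjusted p = 0.0264), as was Rnu5g, a model of U5, which serves both spliceosomes (-3.51, 0.0317). Both calls, like that of Rnu12, were lost when either LARP7 library was left out (-2.32 and -3.14 for replicate 1, -3.13 and -4.06 for replicate 2) and when IgG replicate 2 was (-1.82 and -1.34). Rnu2-10, a U2 model that pairs with major branch points and so stands where U12 does in the minor spliceosome, was at 0.22 on the log2 scale (edgeR adjusted p = 0.832). Rnu6, the U6 model that carries the family symbol, was higher (7.17, edgeR adjusted p = 0.00223), with a posterior SD of up to 5.37 times its count, since its copies share reads. That SD reached 1.01 times the count for Rnu1a1 and 0.394 times for Rnu2-10, so the values of these models are uncertain. No model carried the symbol Rnu4atac or Rnu6atac, the other minor spliceosome snRNAs, so they were not analysed here.

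Read sharing with other models in the files was small for the 3 snRNAs themselves. RSEM's posterior SD of the count was at most 0.91 for Rnu7 and 0.31 for Rnu11, and it reached 3.57 and 3.68 counts for Rnu12 with LARP7, against 0.62 and 0.28 with IgG. Of 44 other snRNA models within 4 nt of Rnu7 in length, none had a count in any library, nor did the 4 near Rnu11. Of 3 near Rnu12, 1 had 0.93 counts in all. RefSeq lists 3 genes named as Rnu7 pseudogenes that have no model in the files, and the posterior SD does not cover them; their part in the Rnu7 counts was not tested. No RefSeq gene overlaps any of the 3. The nearest gene before Rnu7 on the chromosome, Grcc10 at 155 nt, had 33.8 and 68.7 counts with LARP7, against 42.2 and 16.1 with IgG, far below Rnu7. Poldip3, 266 nt before Rnu12, had 29.2 and 29.0 counts with LARP7, against 141 and 56 with IgG. RefSeq gives Rnu11 a length of 108 nt, while the files' model is 134 nt long, so counts per base of U11 would be higher on the RefSeq length.

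**Figure D4:**
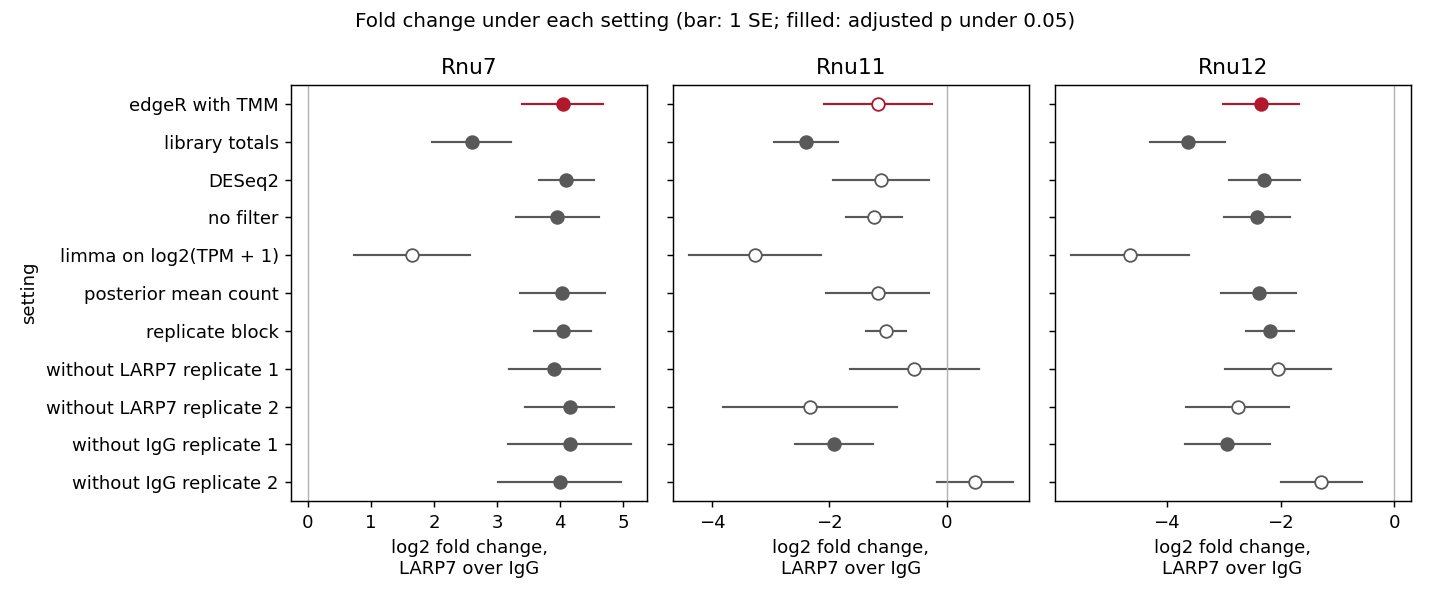
The log2 fold change of LARP7 over IgG for Rnu7, Rnu11 and Rnu12 under each processing setting, with bars of 1 SE and filled points where the adjusted p was under 0.05. Rnu7 stays above 0 in each setting and is not called with limma on TPM, Rnu12 stays below 0, and Rnu11 changes sign without IgG replicate 2 (0.48).

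The genes whose proteins build or use these particles were counted by gene model, and their mRNAs need not follow the snRNAs. Of 18 genes of the U7 particle and histone pre-mRNA cleavage, 17 were tested, 2 were higher and none lower, where 14.5% and 9.69% of all genes were. The median log2 fold change was -0.18, where that of all genes was -0.05. The 2 were Lsm11, which encodes the U7-specific ring protein (log2 fold change 2.52, edgeR adjusted p = 0.0104), and Zfp473, whose human counterpart encodes a zinc finger protein of the U7 complex (1.88, edgeR adjusted p = 0.0232). Lsm11 had 12.4 and 26.8 CPM with LARP7, against 2.84 and 4.14 CPM with IgG. Ncbp1, the cap-binding gene with the most counts of this list, was at -1.29 on the log2 scale (edgeR adjusted p = 0.0854). Ncbp1 was called with the replicate block (-1.39, edgeR adjusted p = 0.0183), with no filter (-1.36, 0.0301), without LARP7 replicate 1 (-2.19, 0.0164) and under library totals (-2.79, 4.29e-06). Under library totals none of the 17 was higher and 10 were lower, where 47.1% of all genes were. Without LARP7 replicate 2 neither Lsm11 (1.86, edgeR adjusted p = 0.0775) nor Zfp473 (1.65, 0.147) was called, and Zfp473 was also lost without IgG replicate 2 (1.68, 0.0642).

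Of 18 minor spliceosome protein genes found, 11 were tested and 1 was higher, where 14.5% of all genes were, with a median of 0.13. It was Snrnp35, which encodes a protein of the U11 and U12 particle, at 79.9 and 69.8 CPM with LARP7, against 15.7 and 28.2 CPM with IgG (log2 fold change 1.77, edgeR adjusted p = 0.0259). It was not called without IgG replicate 1 (1.41, edgeR adjusted p = 0.185). Under library totals none of the 11 was higher and 4 were lower, where 47.1% of all genes were. None of 7 Sm core genes tested was called by edgeR under TMM, with a median of 0.96. Snrpb held nearly all of their counts, and whether the counts on that model came from its mRNA was not tested. It had 5029 and 4539 CPM with LARP7, against 720 and 1775 CPM with IgG (log2 fold change 1.94, edgeR adjusted p = 0.0833). It was called with DESeq2 (1.99, adjusted p = 0.00307), with the replicate block (2.08, edgeR adjusted p = 0.0310) and without IgG replicate 2 (2.79, 0.0185).

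Genes that assemble and make snRNAs had calls in both directions, to be read against the 14.5% of all genes that were higher and the 9.69% that were lower. Of 13 assembly genes tested, 2 were higher and 3 lower (median -0.12). Wdr77 and Gemin4 were higher (log2 fold changes 1.88 and 1.60, edgeR adjusted p = 0.0160 and 0.0173), and Smn1, the gene of the SMN protein that loads Sm rings, was lower (-2.54, 0.0380), as was the helicase gene Ddx20 (-1.35, 0.0384). Of 24 genes of snRNA transcription and 3' end formation tested, 3 were higher and 2 lower (median -0.34). The 3 higher were Ints7 and Ints5, subunits of the Integrator complex that cuts snRNA 3' ends (1.98 and 2.02, edgeR adjusted p = 0.0139 and 0.0255), and the transcription factor gene Pou2f1 (2.19, 0.0271). Larp7 mRNA itself was lower (-1.46, edgeR adjusted p = 0.0291). Under library totals neither of these lists had a gene higher, and 6 and 12 were lower, where 47.1% of all genes were. None of the 8 genes named here kept its call through the removal of each library in turn: Wdr77, Gemin4, Ints7, Pou2f1, Ddx20 and Larp7 lost it without IgG replicate 1 (1.65, 1.61, 1.91, 1.67, -0.95 and -1.30 in log2), and Ints5 and Smn1 without LARP7 replicate 2 (1.48 and -2.27).

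Replication-dependent histone mRNAs are the substrates of U7. Histone models were taken by the start of their symbols, and several were higher with LARP7. Such a list can also hold histone genes that are not replication-dependent. Of 74 histone models found, 3 were at 0 in every library and 38 passed the filter on low counts. By edgeR under TMM 12 of those 38 rose and none fell, where 14.5% of all genes tested rose and 9.69% fell, and their median was 1.18, where that of all genes was -0.05. A model that passed the filter only through the LARP7 libraries could be called in no other direction, so the count is a description. Hist1h1a had 47.8 and 42.0 CPM with LARP7, against 9.77 and 3.35 CPM with IgG (log2 fold change 2.74, edgeR adjusted p = 0.00863). Hist4h4 and Hist1h3c were also higher under TMM (2.60 and 3.03, edgeR adjusted p = 0.0137 and 0.0140), on few counts. Hist4h4 had 25.8 and 50.5 expected counts with LARP7, against 22.7 and 6.86 with IgG. Hist1h3c had 17.9 and 71.4 with LARP7, against 18.2 and 6.95 with IgG. Under library totals Hist4h4 was not called (1.19, edgeR adjusted p = 0.162) and Hist1h3c was (1.66, 0.0460). Hist1h3h, which passed the filter through the LARP7 libraries alone, had 19.94 and 11.95 expected counts with LARP7, against 0 in both IgG libraries. Hist1h4n, the histone model with the most counts, was at 1.16 on the log2 scale (edgeR adjusted p = 0.112), and was called with the replicate block (1.30, edgeR adjusted p = 0.0341) and without IgG replicate 2 (2.05, 0.0367). Summed over all 74 the histone models had 404 and 503 CPM with LARP7, against 176 and 242 CPM with IgG. Library totals gave 5 higher and 4 lower (median -0.16), where 3.95% and 47.1% of all genes were. Under TMM the number higher was 7 or 2 when LARP7 replicate 1 or 2 was left out, and 22 when IgG replicate 2 was. Without LARP7 replicate 2 neither Hist4h4 (2.18, edgeR adjusted p = 0.139) nor Hist1h3c (1.87, 0.293) was called.

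The profile over the 4 libraries, in log2 CPM with a prior count of 2 and centred on each gene's own mean, was also compared with that of every gene tested. The nearest to Rnu7 by Euclidean distance were Ostn (0.192), Gm37648 (0.293), Soat2 (0.311), the microRNA Mir470 (0.369) and Gm44747 (0.371), and the next nearest small RNAs were Mir671 (0.463) and Mir672 (0.552). Ostn, Gm44747 and Mir671 were at 0 in both IgG libraries and at most at 5.40 CPM with LARP7, so their closeness rests on the prior count. Gm37648 and Soat2 were at most at 0.0945 and 0.290 CPM with IgG, so their closeness leans on the prior count too. Mir470 was close at levels nearer to those of Rnu7, with 289 and 296 CPM with LARP7, against 25.0 and 18.4 CPM with IgG. Rnu7 stood at 1.85 from Rn7sk, 5.51 from Rnu11 and 6.36 from Rnu12. The nearest to Rnu11 were the ribosomal protein gene Rpl10a (0.307), the U1 models Rnu1b2 and Rnu1b1 with identical counts (0.320 each), the vault RNA Vaultrc5 (0.405) and Gm20656 (0.526), with the snoRNA Snora68 (0.809) next among small RNAs. Nearest to Rnu12 were Glipr1l1 (0.173), Dnajc30 (0.226), Gm2810 (0.244), Spice1 (0.250) and C330007P06Rik (0.264). Its nearest small RNAs were the U1 model Rnu1a1 and its copies Gm26444 and Gm22068 (0.459 each). U11 and U12 were thus each nearer to a U1 model than to each other (1.49), in profiles of only 4 libraries.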

How the data were processed

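Per the labels' protocols, libraries were made from testis RIP with a small RNA kit. The submitters' processing notes name cutadapt, Bowtie2, RSEM and the build mm10, with versions not given in the sources here. The deposited files hold, per gene model, the authors' expected count, a posterior mean count with its SD, TPM, length and effective length. Expected counts were rounded to whole numbers (13.4% to 18.9% of models in a library were not whole) and tested with edgeR 4.0.16 in R 4.3.3 (filterByExpr, TMM, robust quasi-likelihood F test, two-sided, Benjamini-Hochberg adjustment over 12234 genes, threshold 0.05), with antibody as the term. The script was tested on simulated data. Alternatives were library totals, DESeq2 1.42.0, no filter, limma 3.58.1 on log2(TPM + 1), the posterior mean count, the replicate number as a block and leaving out each library. Within-library ratios used expected counts plus 0.5 and exact permutation tests (scipy 1.17.1). SEs of the edgeR fits are the log2 fold change that edgeR reports over the square root of F, and SDs are over 2 libraries. Each library held 4411271 to 6994514 counts.

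The named genes are the 3 snRNAs; Rn7sk, Rnu6 and the U1, U2 and U5 models with the most counts; up to 4 called genes and the one with the most counts from each list; and the 5 nearest profiles and 3 nearest small RNAs. The members and lists were chosen with earlier results of these data known. Coordinates and biotypes come from RefSeq on GRCm38.p6, the assembly of mm10. No sequence of the 3 snRNAs was used here. Marker lists of other testis cells were also counted: 0 of 4 spermatocyte, 1 of 3 spermatogonial and 0 of 4 Leydig markers tested were higher, 1 of 3 Sertoli markers tested was lower, and 0 blood and vessel markers passed the filter. Of all genes tested, 14.5% were higher and 9.69% lower. Under library totals 0 of these markers were higher. Lower there were 3 of 4 spermatocyte, 1 of 3 spermatogonial, 3 of 3 Sertoli and 4 of 4 Leydig markers, where 47.1% of all genes were.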

Additional observations from a re-analysis of the deposited data

How the results depend on the processing

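The log2 fold change of Rnu7 ran from 1.66 to 4.15 over the alternatives, always higher with LARP7, and lost its call only with limma on log2(TPM + 1), at 1.66. Rnu12 was always lower, with a range of -1.29 to -4.65, and it lost its call at -4.65 with limma and on leaving out any library but IgG replicate 1; leaving out each library in turn gave -1.29 to -2.93. Rnu11 was called lower under library totals (-2.39) and without IgG replicate 1, and ran from -2.33 to 0.48 as each library was left out. Rnu2-10 was at -1.17 under library totals, at -2.37 with limma, and from -0.0755 to 0.65 as each library was left out. The ratios within a library kept their direction with TPM, posterior mean counts and a pseudocount of 1, and as each library was left out, except Rnu7 over Rn7sk, which ran from -1.52 to 0.38.

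Library totals called 483 genes higher and 5759 lower, DESeq2 729 lower, and limma 5 higher and 19 lower. Leaving out each library in turn gave 660 to 2138 genes higher and 197 to 922 lower. Under library totals 0 genes of the U7 list were higher and 10 lower, 0 and 4 of the minor spliceosome list, 1 Sm core gene was lower, 0 and 6 assembly genes, 0 and 12 transcription genes, and 5 and 4 histones. With limma 0 genes were higher in each of the U7, minor spliceosome, assembly, transcription and histone lists and 0 were lower in the assembly and transcription lists. With limma Wdr77 (-0.28), Pou2f1 (-0.0167), Snrpb (-0.56), Snrnp35 (-0.46), Ints7 (-0.21), Zfp473 (-0.0955), Gemin4 (-0.37), Ints5 (-0.21) and Hist1h4n (-1.04) turned below 0, as Hist1h4n did under library totals (-0.17). The median of all genes tested was itself below 0, at -0.288 with limma and -1.47 under library totals. Snrpb, Snrnp35, Gemin4 and Hist1h4n lay below the limma median, and the other genes named here lay above it. Under library totals Hist1h4n lay above the median. The cause of the turns was not tested. DESeq2 called 1 Sm core gene higher and 0 assembly genes lower, the fit with no filter 1 gene of the U7 list lower, and the posterior mean counts 1 histone lower. With each library left out in turn, 0 to 2 genes of the U7 list were higher and 0 to 1 lower, 0 to 1 of the minor spliceosome list lower, 0 to 1 Sm core genes higher, 0 to 2 assembly genes higher and 0 to 1 lower, 1 to 3 transcription genes higher and 0 to 3 lower, and 2 to 22 histones higher.

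The deviations of same-numbered libraries correlated at 0.20 across 12234 genes, but 2 pairs do not show that the numbers pair the libraries. With the replicate block Rnu7 was at 4.04, Rnu11 at -1.03 (edgeR adjusted p = 0.0504) and Rnu12 at -2.18 (edgeR adjusted p = 0.00741), so no call of the 3 changed. Of other named genes it called Snrpb, Ncbp1 and Hist1h4n, which were not called without it. The block called 2088 genes higher and 1405 lower, 2 Sm core genes higher, and 1 gene of the U7 list and 1 histone lower.

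Each group holds 2 libraries. A library left out leaves a lone library that is assumed to vary like the other antibody's. Rnu11 had 35 counts in LARP7 replicate 1, and the exact 95% binomial interval of its library share there runs from 3.52 to 7.04 CPM, counting error only.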
